A study of Mus musculus with 25 samples.

Results

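The haemoglobin genes Hba-a1, Hba-a2, Hbb-bs and Hbb-bt and the erythroid haem synthesis gene Alas2 were followed in RNA of mouse prefrontal cortex. These 5 genes were chosen by symbol from the 23990 genes of the deposited table, with earlier results of these data in view, and all 5 were in the table. The study sequenced total RNA of the prefrontal cortex from 25 samples in 6 groups, 13 male and 12 female, that were controls or went through social defeat with vehicle or with a mixture of dihydrocaffeic acid and malvidin-glucoside. Social defeat exposes a mouse to an aggressor. The values below come from 5 libraries, replicates 1 to 5 of wild-type C57BL/6 males aged 10 weeks that were stressed by social defeat and given vehicle before and throughout it. Columns of the table carry a letter with a number. The letter with 5 numbers was read as this group, since no other group has 5 samples, and the number as the replicate. The 20 other columns could not be tied to a group by name and were not used here, so no effect of stress, treatment or sex is given. No label states whether the libraries are from different mice, and some of their spread may therefore be technical. Whether the mice were perfused before dissection is not given in the sources used here.

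Haemoglobin of the adult mouse is a tetramer of alpha chains, encoded by Hba-a1 and Hba-a2, and beta chains, encoded in C57BL/6 by Hbb-bs and Hbb-bt. Each chain holds a haem group, whose synthesis in erythroid cells starts with the enzyme encoded by Alas2, while other cells use Alas1. Red blood cells of the mouse lose their nucleus, and the youngest in the circulation, the reticulocytes, still carry messages of these genes, so that blood left in the vessels brings them into an RNA sample of brain. Low haemoglobin expression has also been described in some neurons and glia, and the values here do not separate these sources.

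Reads assigned to genes numbered 34565147 to 44265039 per library, and 3 reads corresponded to 0.0673 to 0.0870 CPM (reads of a gene scaled to a common library size). Mitochondrially encoded genes took 5.70% to 6.12% of the reads. The neuronal kinase gene Camk2a stood at 2897 to 4010 CPM and the vesicular glutamate transporter gene Slc17a7 at 1769 to 2020 CPM, while Ttr, the defining gene of choroid plexus, had 0 to 0.352 CPM. Replicate 4 stood apart in 2 gene lists given further on, those of neutrophils and leptomeninges. Errors given with ± are SDs over libraries (n = 5).

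The promoters of the members are shown because the 4 haemoglobin genes lie in a pair of clusters on different chromosomes and share a set of short motifs. The alpha genes lie on chromosome 11 of GRCm38, Hba-a1 at 32283511 to 32284465 and Hba-a2 at 32296489 to 32297298, both on the plus strand. The beta genes lie on chromosome 7, Hbb-bs at 103826534 to 103828096 and Hbb-bt at 103812524 to 103813996, both on the minus strand. Alas2 lies on the X chromosome at 150547375 to 150570638 on the plus strand. The 120 bases before each RefSeq gene start (GRCm38.p6) are given 5′ to 3′ on the gene's strand, with motif matches in capitals. The motifs were CACCC, the box bound by Krüppel-like factors, the CCAAT box, ATATAA as a form of the TATA box, and GATAA, the core bound by GATA factors. Each was searched on both strands. For Hba-a1 and Hbb-bs these bases lie within the longer first exon that GENCODE M21 annotates. For Hbb-bt and Alas2 they lie partly within the annotated gene, which begins at 103813996 and at 150547375.
Hba-a1, chr11:32283552-32283671, plus strand: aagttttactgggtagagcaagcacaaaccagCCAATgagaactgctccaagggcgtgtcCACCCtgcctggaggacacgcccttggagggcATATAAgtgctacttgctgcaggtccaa
Hbb-bs, chr7:103827929-103828048, minus strand: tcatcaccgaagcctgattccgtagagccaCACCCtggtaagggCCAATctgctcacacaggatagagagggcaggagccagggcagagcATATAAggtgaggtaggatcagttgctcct
Hbb-bt, chr7:103813924-103814043, minus strand: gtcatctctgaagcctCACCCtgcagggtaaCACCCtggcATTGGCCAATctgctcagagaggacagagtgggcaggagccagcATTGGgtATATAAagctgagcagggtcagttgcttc
Alas2, chrX:150547297-150547416, plus strand: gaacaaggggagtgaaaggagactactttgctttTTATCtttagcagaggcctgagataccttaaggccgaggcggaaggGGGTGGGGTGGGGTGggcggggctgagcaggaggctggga

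The promoter of Hba-a2 is not printed, since 247 of its 250 bases before the start are an unbroken stretch shared with Hba-a1. All 4 haemoglobin promoters held the CACCC box, the CCAAT box, the ATATAA motif and the GATAA core within 250 bases. ATATAA began 28 bases before the start in Hba-a1, 30 in Hbb-bs and 29 in Hbb-bt. The GATAA matches of the haemoglobin genes lay farther out, beginning 182 bases before the start in Hba-a1, 209 in Hbb-bs and 204 in Hbb-bt. In Hbb-bt, 3 matches to CCAAT or its complement ATTGG were found, of which ATTGG and CCAAT adjoin. Alas2 held no CCAAT or ATATAA in this window. It held 3 adjoining matches to CACCC on the other strand, written GGGTG, and 1 to GATAA on the other strand, written TTATC, which began 86 bases before the start. Among all 32851 RefSeq promoter windows of the same length, 52.0% held CACCC, 22.6% GATAA, 33.8% CCAAT and 9.10% ATATAA, and 1.36% held the CACCC box with the CCAAT box and the ATATAA motif. A match describes the letters only.

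All 4 haemoglobin genes were detected in each library, with Hbb-bs and Hba-a1 at the higher levels. Hbb-bs, the major adult beta chain gene, had 87.6, 48.4, 56.1, 98.8 and 82.6 CPM in replicates 1 to 5, a mean of 74.7 ± 21.5 CPM. Hbb-bt, which encodes the other beta chain, had 11.6, 5.20, 6.50, 13.2 and 11.5 CPM in the same order, a mean of 9.61 ± 3.52 CPM. Replicate 4 had the highest value of both beta genes, and replicate 2 the lowest. Hba-a1 had 60.8, 40.4, 41.3, 65.2 and 62.0 CPM in replicates 1 to 5, a mean of 53.9 ± 12.1 CPM. Hba-a2 had 13.0, 6.33, 8.50, 11.3 and 9.27 CPM, a mean of 9.69 ± 2.59 CPM. Hba-a1 was highest in replicate 4, and Hba-a2 in replicate 1. Replicates 2 and 3 held the lowest values of each of these 4 genes.

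**Figure D1:**
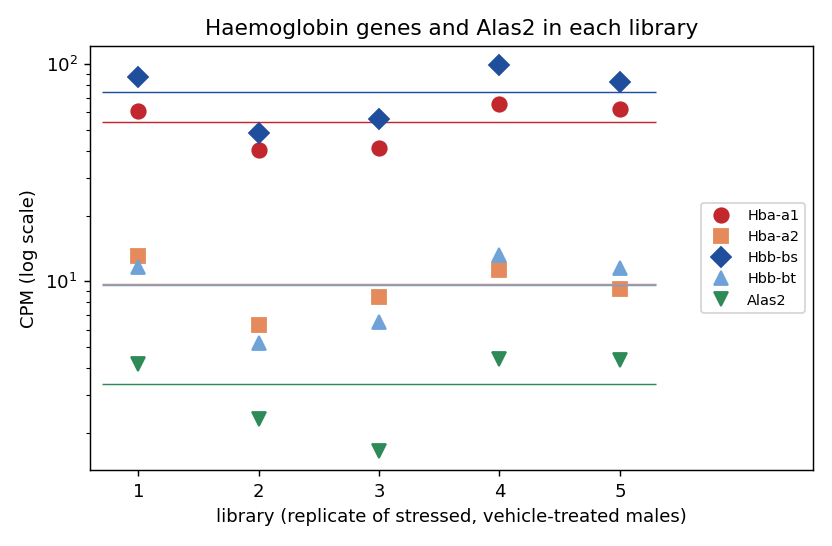
CPM (log axis) of the 5 members in each library, with points for single libraries and a line at the mean over the 5 libraries. Replicates 2 and 3 lie lowest for each gene, with Hbb-bs at 48.4 and 56.1 CPM there and at 82.6 to 98.8 CPM in the other libraries.

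The 4 haemoglobin genes together took 0.0102% to 0.0188% of the reads assigned to genes. Their summed level was 173, 100.3, 112, 189 and 165 CPM in replicates 1 to 5, a mean of 148 ± 39.1 CPM. In replicate 4, 6503 reads made up 0.0188% of the library, with a 95% exact (Clopper-Pearson) interval of 0.0184% to 0.0193%. In replicate 2, 3836 reads made up 0.0102%, with an interval of 0.00991% to 0.0106%. These intervals cover counting error only. The highest sum was 1.88 times the lowest, and the sums fell into a range of 100.3 to 112 CPM in replicates 2 and 3 and of 165 to 189 CPM in the other libraries. In such bulk RNA, fewer red blood cells and less RNA per cell cannot be told apart.

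Per kilobase of exon, Hbb-bs reached 97.2 ± 28.0 RPKM and ranked 356 among the 14524 genes that averaged 1 CPM or more. Hba-a1 reached 66.4 ± 14.9 RPKM, at rank 591. Hba-a2 and Hbb-bt stood at 14.5 ± 3.88 and 13.7 ± 5.01 RPKM, at ranks 3196 and 3363, and their ranges overlapped. The median gene of at least 1 CPM stood at 4.93 RPKM. The union exon lengths were 812 bases for Hba-a1, 667 for Hba-a2, 768 for Hbb-bs and 703 for Hbb-bt, and the RPKM values depend on these annotated lengths.

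Alas2, which catalyses the first and rate-limiting step of haem synthesis in erythroid cells, stood far below the haemoglobin genes. It had 4.16, 2.33, 1.66, 4.41 and 4.37 CPM in replicates 1 to 5, a mean of 3.39 ± 1.30 CPM and of 1.41 ± 0.539 RPKM, at rank 11432. Replicate 3 was lowest with 74 reads, and replicate 2 next with 89 reads. The 95% exact Poisson intervals were 1.30 to 2.08 CPM in replicate 3 and 1.87 to 2.86 CPM in replicate 2, which overlap. Those of replicates 1, 4 and 5 began at 3.57, 3.73 and 3.75 CPM, above both.

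All 5 members were spread over the libraries by at least 1.5-fold, a background that 21.6% of the 14524 genes reached, and 4 of 5 by at least 2-fold, which 6.35% reached. The spread of these libraries was known when the genes were chosen, so it is given as a description. The highest library was 2.65 times the lowest for Alas2, 2.53 times for Hbb-bt, 2.06 times for Hba-a2, 2.04 times for Hbb-bs and 1.61 times for Hba-a1, after 0.5 reads were added, against a median of 1.26 times over all genes. The coefficient of variation was taken with the counting error expected of independent reads removed. Some counting error would remain in it if both reads of a fragment were counted. The coefficient was 37.3% for Alas2, 36.3% for Hbb-bt, 28.7% for Hbb-bs, 26.2% for Hba-a2 and 22.3% for Hba-a1. The median gene had 8.26%, and 90.8% of genes had a smaller value than Hba-a1. The Alas2 spread rests in part on replicate 3, without which the log2 of highest over lowest was 0.92, against 1.40 over all libraries. Replicates 2 and 3 held the 2 lowest values in 5 of 5 members and in 9.56% of all genes, and nothing is read from that count, since the order was taken from the members.

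**Figure D2:**
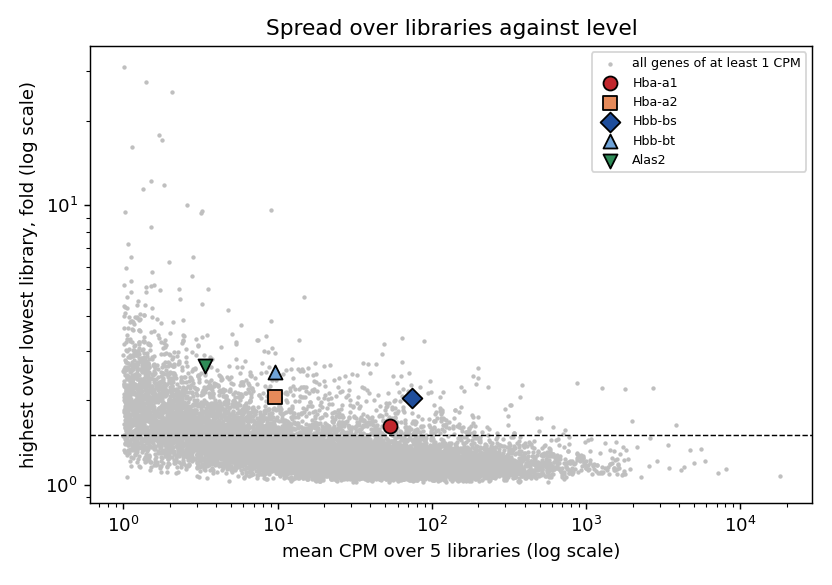
Highest over lowest library as a fold (log axis) against mean CPM over 5 libraries (log axis) for 14524 genes (grey) and the 5 members (coloured), with a dashed line at 1.5-fold. All members lie above the line, from Hba-a1 at 1.61-fold to Alas2 at 2.65-fold, as do 21.6% of genes.

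The balance of alpha and beta messages moved less than their level. Summed alpha reads over summed beta reads gave 0.745, 0.872, 0.795, 0.683 and 0.757 in replicates 1 to 5, a mean of 0.771 ± 0.0696, with a coefficient of variation of 9.03% against 26.4% for the haemoglobin sum. The ratio was highest in replicate 2, where the sum was lowest, and lowest in replicate 4, where the sum was highest. Their 95% exact binomial intervals, 0.818 to 0.930 and 0.650 to 0.718, do not overlap. These libraries were picked as the extremes, and the intervals cover counting error only. Between libraries the beta sum spanned 2.09-fold and the alpha sum 1.64-fold.

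Within each pair one copy had most of the reads. Hbb-bs stood at 7.52, 9.30, 8.62, 7.51 and 7.16 times Hbb-bt in replicates 1 to 5, a mean of 8.02 ± 0.900. Hba-a1 stood at 4.66, 6.38, 4.86, 5.77 and 6.69 times Hba-a2, a mean of 5.67 ± 0.898. The Hba-a1 to Hba-a2 ratio of replicate 5 had an interval of 5.99 to 7.48 and that of replicate 1 one of 4.25 to 5.13, which do not overlap. Here too the libraries are the extremes, and the intervals cover counting error only. These ratios depend on how reads that match both copies were counted, which is not given in the sources used here. The longest open reading frames of Hba-a1 and Hba-a2, of 429 bases each, differ at 1 base, and those of Hbb-bs and Hbb-bt, of 444 bases each, also at 1. Of all 100-base windows of the longest GENCODE transcript, 74.5% in Hba-a2 and 56.5% in Hba-a1 occur in the other alpha gene, and 62.6% in Hbb-bs and 54.8% in Hbb-bt in the other beta gene. No window of 50 bases was shared between Hba-a1 and Hbb-bs. The alpha and beta sums are therefore uncertain too if such reads were left out.

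Alas2 followed the haemoglobin genes in 4 libraries and stood lower in replicate 3. There were 2.41, 2.32, 1.48, 2.34 and 2.64 Alas2 reads per 100 haemoglobin reads in replicates 1 to 5. The interval of replicate 3, 1.16 to 1.857, ends almost where that of replicate 2, 1.859 to 2.86, begins, and below those of the other libraries. These intervals treat each read as independent. They would be wider, and could overlap, if both reads of a fragment were counted. Haemoglobin was at 112 CPM in replicate 3 and at 100.3 CPM in replicate 2. Whether these 2 libraries differ in the ratio was not tested.

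**Figure D3:**
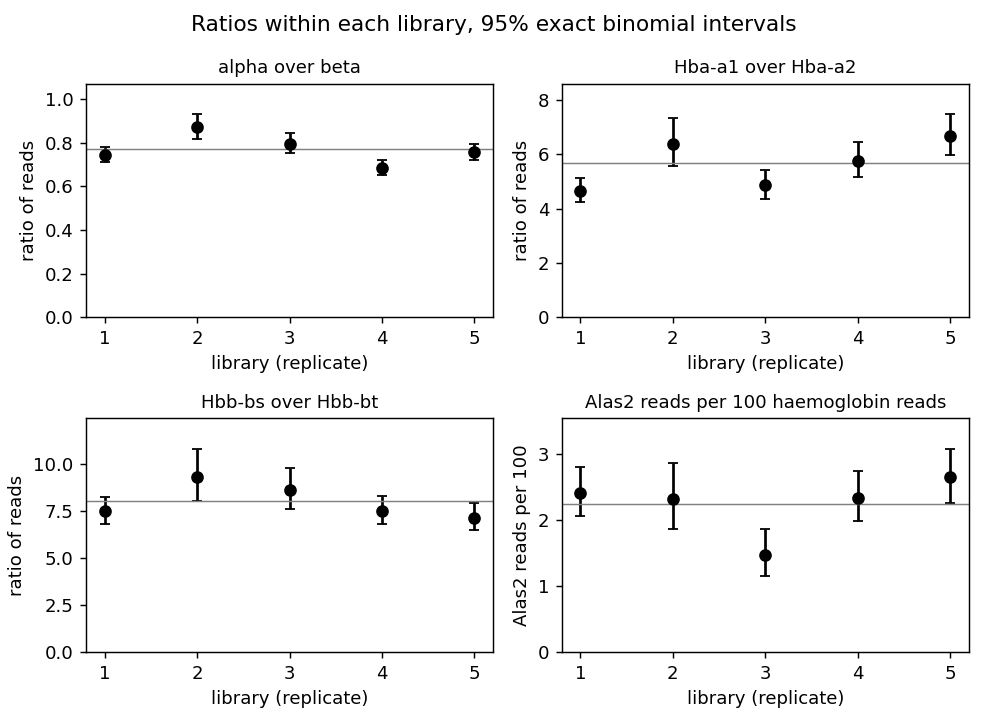
Ratios of reads in each library with 95% exact binomial intervals (bars) and the mean over 5 libraries (grey line), with the library on each x axis. Alpha over beta runs from 0.683 in replicate 4 to 0.872 in replicate 2, and Alas2 per 100 haemoglobin reads is lowest in replicate 3, at 1.48.

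Defining red blood cell genes such as Slc4a1 were below 1 CPM in each library, while genes that other cells also express made up nearly all of the list. Of 23 genes of the red blood cell membrane and maturation, 15 were in the table and 8 reached 1 CPM, and the other 8 were not analysed here. The band 3 anion exchanger gene Slc4a1 had 0 to 0.402 CPM, and Hemgn had no reads in any of the 5 libraries, where 3 reads correspond to 0.0673 to 0.0870 CPM. The list summed to 569 to 662 CPM and was led by Car2 (159 ± 31.0 CPM), a carbonic anhydrase gene that oligodendrocytes also express. Next came the spectrin gene Sptb (156 ± 13.8 CPM) and the peroxiredoxin gene Prdx2 (149 ± 8.09 CPM). Unlike the members, Sptb was lowest in replicate 1, at 142 CPM, and its spread was 1.26-fold. Of the list's 8 genes of at least 1 CPM, 1 was spread by 1.5-fold, near the share of 21.6% over all genes. It was Car2, which was highest in replicate 3. The erythroid transcription factor gene Klf1 had 0 to 0.232 CPM. Among 10 erythroid transcription factors and receptors, 8 were in the table and 6 reached 1 CPM, led by the transferrin receptor gene Tfrc (138 ± 12.9 CPM), with a list sum of 259 to 303 CPM.

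Haem genes that all cells use were also measured. All 8 genes of the haem synthesis list reached 1 CPM, summed to 228 to 248 CPM and were spread by a median of 1.18-fold. Alas1, the enzyme of non-erythroid cells, had 42.7, 44.0, 40.7, 46.5 and 43.2 CPM in replicates 1 to 5. Per kilobase it stood at 7.04 RPKM, above Alas2 at 1.41 RPKM. Fech, which inserts iron into the ring, had 52.2, 50.1, 49.4, 53.5 and 45.9 CPM. In the list of haem and haemoglobin clearance, 6 of 8 genes reached 1 CPM and the sum was 536 to 671 CPM, most of it the scavenger receptor gene Lrp1 (546 ± 54.1 CPM). The haem oxygenase gene Hmox1, induced by haem, had 3.56, 3.48, 3.54, 3.71 and 4.40 CPM in replicates 1 to 5, and Cd163, the haemoglobin receptor of macrophages, 0.837 to 1.68 CPM.

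The globins of brain cells were also measured. Cytoglobin (Cygb), an oxygen-binding protein of fibroblast-like and other cells, had 50.9, 47.1, 47.1, 50.7 and 52.3 CPM in replicates 1 to 5, a spread of 1.11-fold. Neuroglobin (Ngb), the globin of neurons, had 2.36, 2.09, 1.03, 2.29 and 2.76 CPM and was lowest in replicate 3, with 46 reads. Of 11 other globin genes, 5 were in the table and these 2 reached 1 CPM. The list sum was 49.3 to 55.7 CPM. The embryonic globin genes of the list were not analysed here.

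Genes of other blood cells and of vessels were set beside the members, library by library. Platelet genes summed to 21.2 to 29.4 CPM, of which Gp1bb held 19.3 ± 2.95 CPM, and the defining platelet genes Pf4 and Ppbp had 0.157 to 0.928 and 0 to 0.232 CPM. Of 8 platelet genes in the table, 2 reached 1 CPM. Lymphocyte genes summed to 0.471 to 0.941 CPM, and 0 of 8 in the table reached 1 CPM. Of 5 monocyte genes 1, the matrix gene Fn1, reached 1 CPM, Ccr2 had 0.0897 to 0.812 CPM, and the list summed to 41.6 to 71.8 CPM. Neutrophil genes, of which 4 of 9 in the table reached 1 CPM, summed to 11.7, 8.89, 7.58, 29.3 and 9.27 CPM in replicates 1 to 5. Of these sums, Csf3r alone held 7.89, 6.82, 6.68, 7.25 and 6.96 CPM, a spread of 1.18-fold. It was most of the sum in each library but replicate 4. The neutrophil gene S100a9 had 6.55 CPM in replicate 4 and 0.359 to 0.626 CPM in the others. For Hbb-bs, replicate 4 held 98.8 CPM and the next highest library, replicate 1, 87.6 CPM. The part of other blood cells in the haemoglobin values was not tested.

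All 10 endothelial genes reached 1 CPM, and they summed to 354, 343, 329, 404 and 357 CPM in replicates 1 to 5. The tight junction gene Cldn5 was highest in replicate 2, at 47.4 CPM, where haemoglobin was lowest. Vwf, which endothelium of larger vessels and platelets express, had 26.6, 16.0, 17.4, 38.3 and 26.2 CPM, the same order of libraries as Hbb-bs. The 8 pericyte and smooth muscle genes summed to 221, 195, 189, 210 and 207 CPM. Microglia genes, all 5 of them over 1 CPM, summed to 312, 272, 265, 282 and 290 CPM, the 6 cortical neuron genes to 7766 to 9704 CPM and the 5 choroid plexus genes to 1.62 to 3.10 CPM.

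Most leptomeningeal genes, of the thin membrane that covers the cortex, were low in the libraries where the members were low, but Ptgds, the most abundant, was not. Of 10 such genes 9 reached 1 CPM, all 9 were spread by at least 1.5-fold, against 21.6% of all genes, and 8 of 9 had their 2 lowest values in replicates 2 and 3, against 9.56% of all genes. The same count was 2 of 2 other globins, 4 of 8 pericyte and smooth muscle genes, 2 of 4 neutrophil genes, 4 of 10 endothelial genes and 2 of 5 microglia genes. It was 1 of 8 red blood cell membrane genes, 1 of 6 haem clearance genes, 1 of 6 cortical neuron genes 1 of 1 choroid plexus gene, 0 of 8 haem synthesis genes, 0 of 6 erythroid transcription factor and receptor genes, 0 of 2 platelet genes and 0 of 1 monocyte gene. The order was taken from the members and the lists were chosen with earlier results known, so these counts are a description. Genes of 1 tissue are also not independent of each other. The mean log2 level of the leptomeningeal genes, less the mean over libraries, was 0.06, -0.69, -0.75, 1.16 and 0.23 in replicates 1 to 5. The mean over the 5 members was 0.35, -0.55, -0.45, 0.41 and 0.25. Igf2, which leptomeninges and vessels express, had 17.4 and 17.1 CPM in replicates 2 and 3 and 38.4 CPM in replicate 4. The leptomeningeal sum was 227, 188, 220.0, 460.1 and 202 CPM, led by Ptgds (200 ± 91.4 CPM), a prostaglandin synthase gene that oligodendrocytes also express. Ptgds had 169, 147, 185, 360 and 138 CPM in replicates 1 to 5, so it was lowest in replicate 5. The part of these genes' source tissue in the haemoglobin values was not tested.

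**Figure D4:**
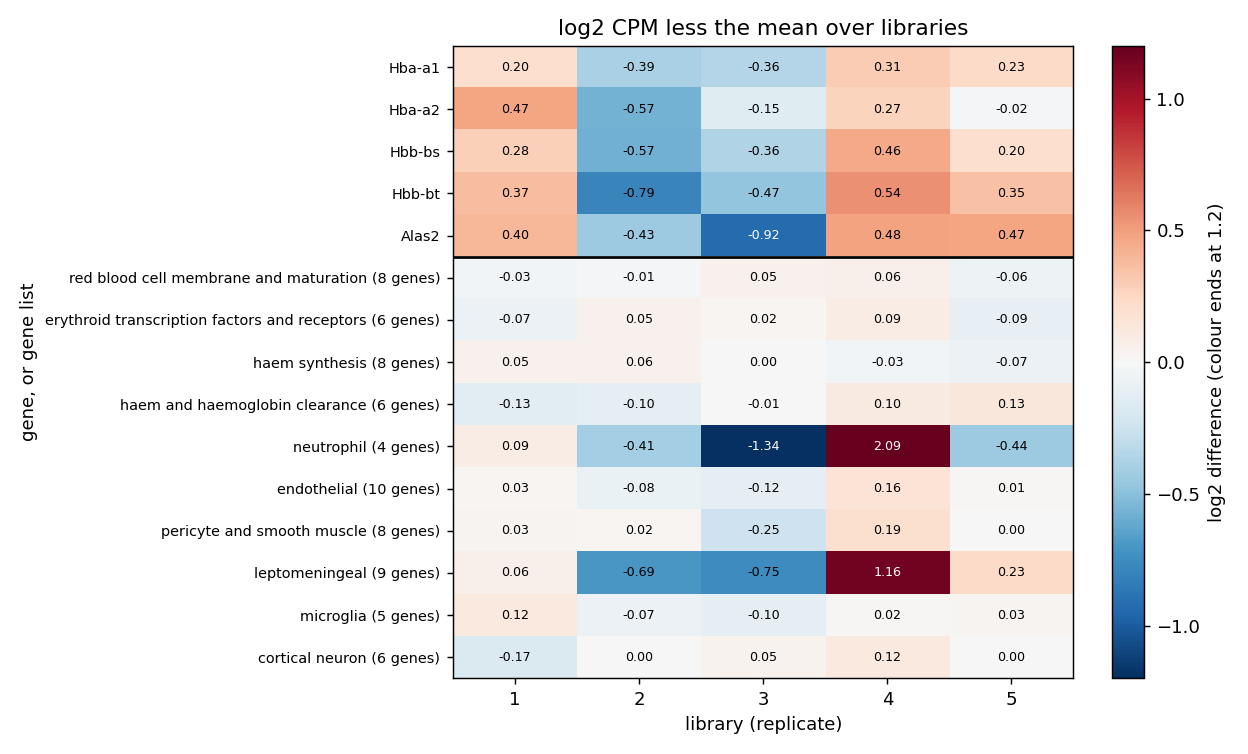
log2 CPM less the mean over the 5 libraries (colour and printed value) for each member (top 5 rows) and as a mean over the genes of at least 1 CPM in lists with 3 or more such genes (lower rows), by library. The members are negative in replicates 2 and 3, as is the leptomeningeal list (-0.69 and -0.75), while the red blood cell membrane list lies between -0.06 and 0.06.

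The 10 genes whose centred log2 profile over the 5 libraries was nearest to the mean profile of the members were picked by root mean square difference, with no test. They included the hormone gene Pthlh (difference 0.056), the relaxin family receptor gene Rxfp3 (0.081), the antigen presentation gene Cd74 (0.084), Tgfbr3 (0.12), the transcription factor gene Neurod1 (0.12) and Csrp2 (0.13). Others were 5330413P13Rik (0.11), 1700008J07Rik (0.13) and an identifier without a symbol. For scale, the members themselves differed from their mean profile by 0.059 (Hbb-bs) to 0.24 (Alas2). Cd74 had 3.37, 1.67, 2.00, 3.60 and 2.79 CPM in replicates 1 to 5. All 10 were low, at 8.11 CPM or less, and over 5 libraries such likeness is easily reached among 14524 genes.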

How the data were processed

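Total RNA of prefrontal cortex was isolated with a Qiagen column kit and made into Illumina libraries, per the labels' protocols. The authors deposited 1 table of log2 values for 23990 Ensembl genes in 25 columns, of which 20 were not used here. The submitters' processing notes name edgeR, Subread 1.6.3 with featureCounts, SAMtools 1.9 and STAR 2.6.1d, and the builds GRCm38 and mm10. Not given in the sources used here are the annotation, gene filter, read length, strandedness and handling of reads with several matches, and reads of an overlapping antisense gene may be included.

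How the values were formed was worked out from them: if each column's minimum stands for 0 reads and 0.5 reads were added before the log, 100% of values gave whole reads within 1e-06. CPM divides reads by the effective library size this gives, which was 0.998 to 1.04 times the total, and RPKM is CPM per kilobase of merged exons (GENCODE M21, GRCm38). Symbols matched 23846 identifiers. Promoters are RefSeq's, GRCm38.p6, found for 5 of 5 members.

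With 1 group there is no contrast, and no test between conditions was run. Single libraries that stand apart were looked for with Dixon's ratio. Values are given per library with mean and SD, with Poisson or binomial 95% intervals for counting error only. The intervals treat each read as independent. Many low counts were even (Slc4a1 had 8, 6, 0, 4 and 16 reads in replicates 1 to 5). Both reads of a fragment may therefore have been counted. The intervals would then be too narrow, and the coefficients of variation would keep some counting error. The spread measure was checked on simulated reads. The members and 15 lists (137 genes) were chosen with earlier results of these data known. Genes named beside the members were to be the 3 most abundant and the most variable of each list and the 10 most alike, of which only some are printed and some are not reported here. Other list genes (Slc4a1, Hemgn, Klf1, Hmox1, Pf4, Ppbp) were chosen after their values were seen. Alternatives were other scalings, other pseudocounts and filters, and leaving out each replicate. Tools were Python 3.11.15 with Biopython 1.88, matplotlib 3.10.9, scipy 1.17.1, pandas 2.3.3 and numpy 2.4.6.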

Additional observations from a re-analysis of the deposited data

Results flagged for a closer look

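Among 25 values examined (the members, their sums and ratios, and the list sums), 3 had 1 library that stood apart (Dixon's gap-to-range ratio over 0.710), where chance flags about 1 in 20. Alas2 reads per 100 haemoglobin reads stood at 1.48 in replicate 3, against 2.32 to 2.64 in the others. The neutrophil list summed to 29.3 CPM in replicate 4, against 7.58 to 11.7 CPM in the others. The leptomeningeal list summed to 460.1 CPM in the same library, against 188 to 227 CPM. No member's own CPM was set apart in this way.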

How the results depend on the processing

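No paired analysis was possible because the columns used belong to a single group. Of 52 alternatives over 6 results, 50 moved the value by less than 1 SD over libraries, or a count by less than 1.5 times. This yardstick is lenient, and the count is no measure of robustness. Leaving out a single library moves a mean by less than 1 SD whatever the values. Rescaling leaves the alpha to beta ratio unchanged. The fall of the Alas2 spread without replicate 3, given below, also counts as less than 1 SD. The number of genes spread by at least 1.5-fold moved further with the filter, to 12279 of 23990 genes (51.2%) without one and to 681 of 9884 genes (6.89%) at a mean of 10 CPM, by construction, since low counts scatter more. It was 2207 to 2690 when each replicate was left out. Leaving out each replicate gave a haemoglobin sum of 138 to 160 CPM, an Alas2 level of 3.13 to 3.82 CPM and an alpha to beta ratio of 0.745 to 0.792. The log2 of highest over lowest library was then 0.75 to 0.91 for haemoglobin (0.91 over all 5) and 0.92 to 1.40 for Alas2 (1.40 over all 5), with 0.92 without replicate 3. Scaling to total reads gave a haemoglobin spread of 0.88 and median of ratios 0.90. Hba-a1 over Hbb-bs alone gave a ratio of 0.735. Depth limits Alas2, with 74 to 174 reads a library, and leaves Slc4a1 with 0 to 16 reads and Klf1 with 0 to 10.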
